A study of Mus musculus with 9 samples.

Results

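Expression of the interleukin 1 and interleukin 33 receptor system was compared between ST2 cells kept without neutrophils and ST2 cells that took up human neutrophils. ST2 is a stromal line derived from mouse bone marrow. The system was taken as 7 genes of the 55453 rows of the count table, matched by symbol: Il33, Il1rl1, Il1r1, Il1rap, Il1rn, Myd88 and Irak1. They were chosen on earlier results from these same libraries, so their values are a description: no p-value is given for them, and a gene is named as called only to report the outcome of the fit over all genes, from which nothing is read. The 9 libraries formed 3 groups of 3, and all were labelled wild type: ST2 cells without neutrophils at 24 h (unfed), ST2 cells given neutrophils for 3 h and sorted as positive for the neutrophil dye (fed 3 h), and ST2 cells given neutrophils for 24 h and sorted likewise (fed 24 h). The neutrophils came from human blood, had been frozen to bring them to the end of their life, and were added at 10 per ST2 cell. The fed groups therefore hold only the part of the culture that had taken up at least a neutrophil's worth of dye, and feeding and sorting cannot be told apart. No unfed library at 3 h was analysed here, so the fed 3 h and unfed groups differ in time as well. No library was taken before feeding, so words such as rose and fell compare a fed group with the unfed 24 h cells.

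Interleukin 33 binds the receptor chain encoded by Il1rl1, which is also called ST2 and shares only its name with the cell line. Interleukin 1 alpha and beta bind the receptor encoded by Il1r1, and both receptors pair with the shared chain encoded by Il1rap before they signal through the adaptor Myd88 and the kinase Irak1 to NF-kappaB and MAP kinases. The antagonist encoded by Il1rn occupies the interleukin 1 receptor without recruiting the shared chain, and a soluble form of the Il1rl1 protein can bind interleukin 33 away from cells. Stromal cells of bone marrow are known to respond to interleukin 1 with chemokines and haematopoietic growth factors.

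The libraries held 44442664 to 55971275 counts each. Stromal transcripts were abundant: the summed level of 10 stromal markers was 25762 to 33730 CPM (the usual unit of reads scaled to library size, here with TMM factors) over the 9 libraries, although Thy1 had 0 reads in 8 of them and 1 read in the other. Of 13 neutrophil markers only Camp and Mmp9 had enough counts to be tested, and S100a9 was at 0 in every library. The sum was 2.92 to 3.88 CPM in unfed, 1.03 to 1.698 in fed 3 h and 4.27 to 5.30 in fed 24 h libraries. These are rows of mouse genes and the neutrophils were human, so the levels do not measure how much RNA of the added neutrophils was present. The sum of 10 macrophage markers was 4.85 to 6.75, 4.48 to 5.26 and 7.54 to 9.45 CPM in the same order, with Adgre1, C1qa, C1qb and Fcgr1 at 0 throughout. For 9 markers of mast cells, group 2 innate lymphoid cells and regulatory T cells, the classical carriers of Il1rl1, the sum stayed between 0.985 and 1.79 CPM. Most of it was Gata3, the only 1 with enough counts to be tested. Its means were 1.58, 1.06 and 1.45 CPM in unfed, fed 3 h and fed 24 h cells. Foxp3 had 3, 3 and 7 reads in the same order, and Cpa3, Tpsb2, Fcer1a and Il7r were at 0 in all 9 libraries.

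At 3 h Il1rl1 was 3.85-fold higher and Il1rn 4.71-fold lower than in unfed cells, and at 24 h both lay on the other side of the unfed level. Il1r1 differed in the direction of Il1rn at both times but by far less. Il1rap, Myd88 and Irak1 stayed within a narrow range, and Il33 was close to undetected. The panels of single libraries show 2 genes with wide differences between groups and 4 with narrow ones.

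**Figure D1:**
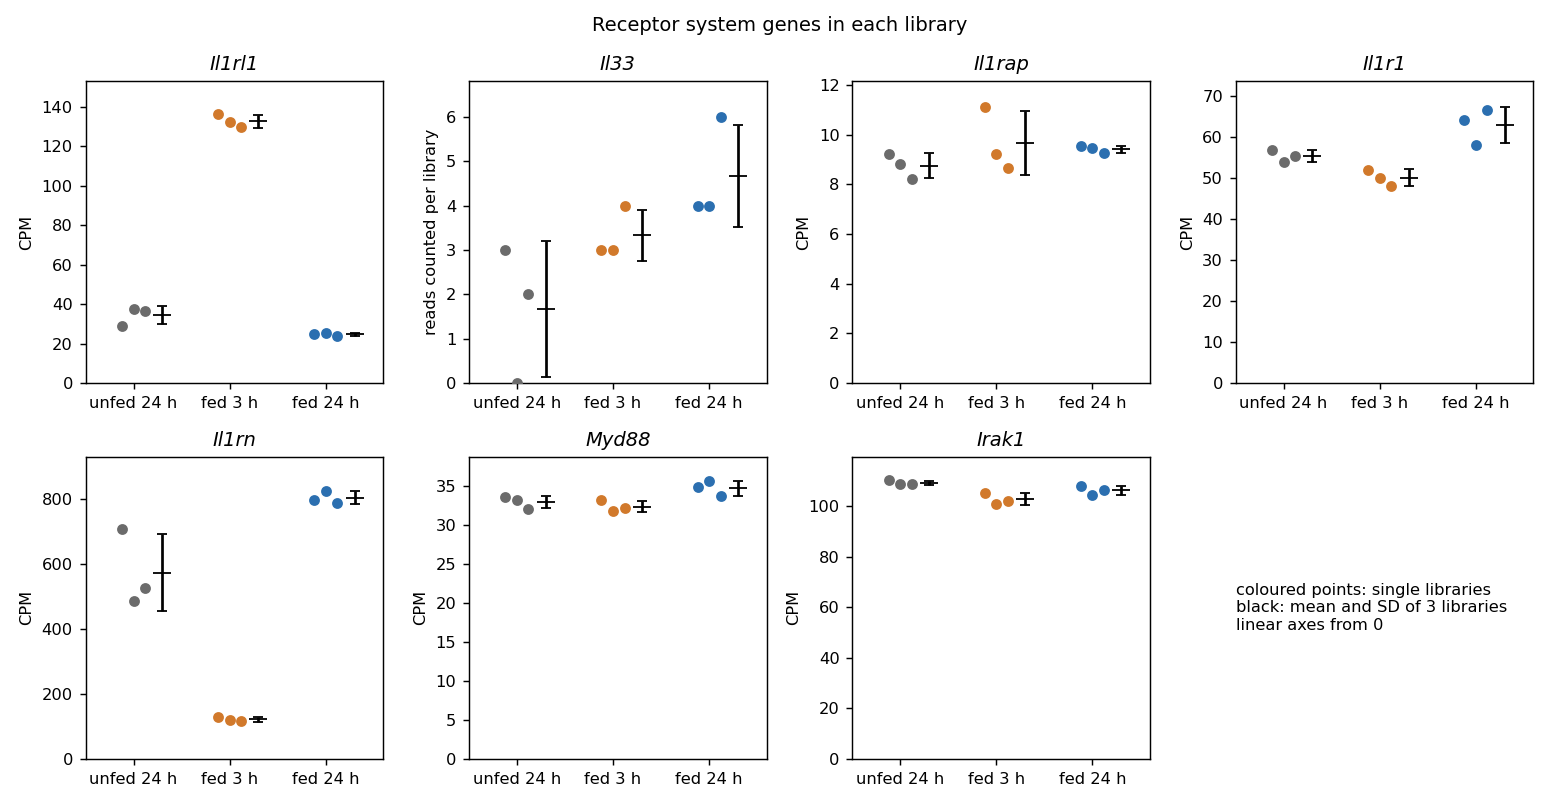
Level of each of the 7 genes in every library, in CPM (Il33 in reads per library), by group. Coloured points are single libraries and black bars the mean and SD of 3. Il1rl1 is high and Il1rn low in the 3 fed 3 h libraries, while Il1rap, Myd88 and Irak1 lie in narrow bands.

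The ligand Il33, a nuclear cytokine that is set free when cells are damaged, was counted with 3, 0 and 2 reads without feeding, with 3, 3 and 4 reads after 3 h and with 4, 4 and 6 reads after 24 h. It did not pass the filter on low counts, so 6 of the 7 genes were tested. Pooled over a group and set against its unscaled total, this is 0.0360 CPM unfed (95% exact Poisson interval 0.0117 to 0.0840), 0.0680 at 3 h (0.0326 to 0.125) and 0.0890 at 24 h (0.0486 to 0.149), and the intervals, which cover counting error only, overlap. Il33 lies on chromosome 19 at 29925114 to 29960718 (GRCm38, GENCODE M21, plus strand).

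The ligands of the interleukin 1 receptor were also nearly absent. Il1a had 1, 2 and 1 reads in the unfed, fed 3 h and fed 24 h groups. Il1b had 4 reads in the unfed group and 0 in both fed groups. The 95% exact Poisson interval for these reaches up to 0.0251 CPM at 3 h and 0.0234 at 24 h. Of the 8 ligands of the family listed beside Il33, Il1a and Il1b included, only Il18, the ligand of the interleukin 18 receptor, had enough counts. Il18 was at 4.05, 2.94 and 3.07 CPM unfed, 2.87, 2.61 and 2.28 at 3 h and 5.18, 4.59 and 4.99 at 24 h. It rose at 24 h by a log2 fold change of 0.55 (SE 0.135, adjusted p = 0.00622, edgeR quasi-likelihood test), and the 3 libraries of each group did not overlap. Its fall at 3 h was -0.37 (SE 0.144, adjusted p = 0.0397) and lost its call when unfed replicate 1 (-0.22), fed 24 h replicate 3 (-0.38), or replicate 2 (-0.38) or 3 (-0.29) of the fed 3 h group was left out, with limma-voom (-0.37), or in the fit of only the 6 libraries compared (-0.38).

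The receptor Il1rl1 was at 29.2, 37.6 and 36.8 CPM without feeding, at 136, 132 and 130 CPM after 3 h and at 24.7, 25.6 and 24.0 CPM after 24 h. All 3 fed 3 h libraries stood far above the rest, and all 3 fed 24 h libraries lay below the lowest unfed library, which was replicate 1. The means were 34.5 ± 4.59, 133 ± 3.28 and 24.8 ± 0.811 CPM (SD, n = 3). On the log2 scale Il1rl1 differed from unfed cells by 1.94 (SE 0.0717) at 3 h and by -0.48 (SE 0.0744) at 24 h, and fed 24 h differed from fed 3 h by -2.42 (SE 0.0732), a 5.36-fold difference. In a bulk library, fewer cells that carry a transcript and less of it per cell cannot be told apart.

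Il1rl1 lies on chromosome 1 at 40429570 to 40465415 (plus strand) with 5 annotated transcripts. RefSeq places its transcripts at 2 start sites, and membrane-bound and soluble proteins are known to arise from alternative transcripts. Counts per gene pool all of these, so the form behind the difference is not given by these data. The stretches just upstream of both start sites (RefSeq, GRCm38.p6, plus strand, 5′ to 3′) are shown because Il1rl1 had the largest rise of the 6 genes tested at 3 h and its transcripts are annotated to begin just after them, and capitals mark the letters GATAA on either strand, the core bound by GATA factors.
Il1rl1 upstream start site, chr1:40429320-40429569: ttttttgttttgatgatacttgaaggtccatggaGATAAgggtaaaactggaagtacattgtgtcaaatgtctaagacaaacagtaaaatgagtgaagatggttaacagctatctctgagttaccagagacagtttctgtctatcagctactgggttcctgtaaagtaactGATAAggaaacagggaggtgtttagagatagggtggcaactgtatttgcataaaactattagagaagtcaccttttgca
Il1rl1 downstream start site, chr1:40439379-40439626: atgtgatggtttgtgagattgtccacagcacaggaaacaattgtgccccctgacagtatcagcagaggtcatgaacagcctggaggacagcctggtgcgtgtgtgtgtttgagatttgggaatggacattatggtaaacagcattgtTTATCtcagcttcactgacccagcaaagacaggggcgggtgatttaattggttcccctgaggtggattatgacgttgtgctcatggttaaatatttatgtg
GATAA was present in 22.581% of all 32851 RefSeq windows of 250 bases upstream of start sites, so its presence here is common. No match to the AP-1 letters TGANTCA, to the cyclic AMP response element TGACGTCA, or to the NF-kappaB and CArG motifs was found in either window on either strand.

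The interleukin 1 receptor Il1r1 was at 56.9, 54.1 and 55.5 CPM unfed, 52.2, 50.2 and 48.2 CPM at 3 h and 64.2, 58.2 and 66.6 CPM at 24 h. The groups did not overlap, but the steps were small, with log2 differences of -0.14 (SE 0.0540) at 3 h and 0.18 (SE 0.0533) at 24 h from unfed, and 0.33 (SE 0.0535) between the fed groups. Both differences from unfed cells kept their direction when any 1 library was left out, at -0.17 to -0.11 at 3 h and 0.14 to 0.24 at 24 h, but their calls did not always hold. At 3 h the call was lost when unfed replicate 1, unfed replicate 3, fed 3 h replicate 2 or fed 3 h replicate 3 was left out (-0.14 to -0.11). At 24 h it was lost when unfed replicate 2, fed 24 h replicate 1 or fed 24 h replicate 3 was left out (0.14 to 0.18). Il1r1 lies on chromosome 1 at 40225080 to 40317257, on the same strand as Il1rl1.

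The shared chain Il1rap was the lowest of the 3 receptor genes among the 7, at 9.20, 8.83 and 8.20 CPM unfed, 11.1, 9.20 and 8.67 CPM at 3 h and 9.53, 9.46 and 9.25 CPM at 24 h. The fed 3 h libraries overlapped with both other groups. Its log2 differences were 0.14 (SE 0.0904) at 3 h and 0.11 (SE 0.0899) at 24 h from unfed, and none was called. Il1rap lies on chromosome 16 at 26581704 to 26730117 and shares 552 exonic bases with the antisense gene Gm20319, which had 1 read in all 9 libraries.

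The antagonist Il1rn was at 709, 488 and 526 CPM in the unfed libraries, 130, 120 and 116 CPM at 3 h and 799, 827 and 788 CPM at 24 h. The 3 fed 3 h libraries were far below all others, the 3 fed 24 h libraries were above all others, and unfed replicate 1 lay closest to the fed 24 h level, as it did for Il1rl1. The means were 574 ± 118, 122 ± 6.99 and 804 ± 20.1 CPM (SD, n = 3). The log2 differences were -2.24 (SE 0.102) at 3 h and 0.49 (SE 0.0966) at 24 h from unfed, and 2.72 (SE 0.104) between fed 24 h and fed 3 h, a 6.60-fold difference. Without unfed replicate 1 the 24 h difference from unfed was 0.67.

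Il1rn lies on chromosome 2 at 24336853 to 24351494 (plus strand) with 6 annotated transcripts, of which the secreted and intracellular forms are known to start at different exons. The windows upstream of 2 of its 3 RefSeq start sites are shown because Il1rn had the largest fall of the 6 genes tested at 3 h. Capitals mark a match to the AP-1 letters TGANTCA.
Il1rn upstream start site, chr2:24336610-24336852: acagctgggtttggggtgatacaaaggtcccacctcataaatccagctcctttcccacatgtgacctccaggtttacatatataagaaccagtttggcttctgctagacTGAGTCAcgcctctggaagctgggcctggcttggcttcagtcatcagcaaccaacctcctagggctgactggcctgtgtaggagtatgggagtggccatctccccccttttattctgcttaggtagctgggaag
Il1rn downstream start site, chr2:24345041-24345287: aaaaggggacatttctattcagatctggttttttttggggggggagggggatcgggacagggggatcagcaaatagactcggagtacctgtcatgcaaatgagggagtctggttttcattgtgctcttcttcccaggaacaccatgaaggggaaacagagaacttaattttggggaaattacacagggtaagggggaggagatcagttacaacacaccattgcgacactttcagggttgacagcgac
The match in the upstream window begins at position -141 from the start site, and 6.749% of all RefSeq windows hold one. The downstream window held no match to any of the 5 motifs searched. A match is a run of letters and was not measured as a bound site.

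The adaptor Myd88 was at 33.6, 33.2 and 32.2 CPM unfed, 33.2, 31.8 and 32.2 CPM at 3 h and 34.9, 35.6 and 33.8 CPM at 24 h. The kinase Irak1 was at 110, 109 and 109 CPM unfed, 105, 101 and 102 CPM at 3 h and 108, 104 and 106 CPM at 24 h. Neither gene was called in any comparison: the log2 differences from unfed were -0.03 (SE 0.0472) and 0.08 (SE 0.0468) for Myd88 and -0.09 (SE 0.0389) and -0.04 (SE 0.0388) for Irak1, at 3 h and 24 h. Myd88, on chromosome 9 at 119335934 to 119341411 (minus strand), shares 290 exonic bases with the gene Acaa1a on the other strand, a peroxisomal thiolase. Acaa1a was higher at 24 h than in unfed cells (0.39, adjusted p = 0.000515, edgeR) and than at 3 h (0.58, adjusted p = 1.99e-06). Since the strand setting of the counting is not given in the sources used here, reads of the shared bases cannot be assigned. Irak1 lies on chromosome X at 74013914 to 74023918 (minus strand).

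In each comparison 3 of the 6 genes tested were called, and they were Il1rl1, Il1r1 and Il1rn each time. At 3 h against unfed 1 was higher and 2 were lower, where 50.6% of all 13568 genes were called, 25.1% higher and 25.5% lower. At 24 h against unfed 2 were higher and 1 lower, where 30.8% of all genes were called, 14.9% higher and 15.9% lower. Between fed 24 h and fed 3 h 2 were higher and 1 lower, where 60.9% were called, 30.8% higher and 30.2% lower. The libraries of the groups compared did not overlap for 4 of the 6 genes at 3 h against unfed (58.2% of all genes), 6 at 24 h against unfed (43.2%) and 4 between the fed groups (65.9%). The choice of the genes used these comparisons, so nothing is read from the counts. The median log2 difference of the 6 was -0.06, 0.09 and 0.08, and that of all genes tested -0.01, -0.00 and -0.00.

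**Figure D2:**
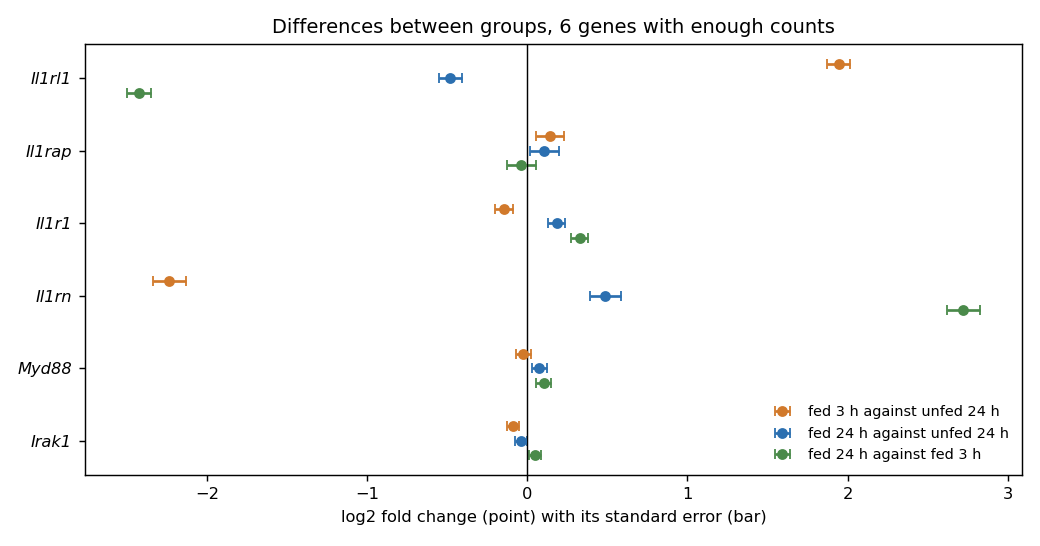
Log2 fold change with its standard error for the 6 genes tested, in the 3 comparisons; the line marks no difference. Il1rl1 and Il1rn lie on opposite sides of the line in each comparison, at 1.94 and -2.24 for fed 3 h against unfed.

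Levels were set against each other per exonic kilobase, with the length taken over the exons of all annotated transcripts of a gene. The forms expressed are not known, so the order between genes is approximate. Il1rn led in unfed cells at 104 ± 21.4 CPM per kilobase, followed by Irak1 at 23.2 ± 0.168 and Myd88 at 12.8 ± 0.289. Il1r1 was at 8.72 ± 0.221, Il1rl1 at 5.01 ± 0.666, Il1rap at 0.770 ± 0.0446 and Il33 at 0.0126 ± 0.0115 (SD, n = 3). At 3 h Il1rn at 22.0 ± 1.26 and Irak1 at 21.8 ± 0.499 differed by less than their spread, and Il1rl1 stood at rank 3 with 19.3 ± 0.476. At 24 h the order was that of unfed cells, with Il1rn at 145 ± 3.62 and Il1rl1 at 3.59 ± 0.118.

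Ratios within a library, which do not depend on the scaling between libraries, put the genes of the same receptor side by side. The antagonist exceeded its receptor, Il1rn over Il1r1 per kilobase, by 14.3, 10.4 and 10.9 in unfed libraries, 2.86, 2.76 and 2.76 at 3 h and 14.3, 16.3 and 13.6 at 24 h. Unfed and fed 24 h libraries overlapped in this ratio, and the fed 3 h libraries stood apart. The ratio of Il1rl1 to its partner chain Il1rap was 5.23, 7.01 and 7.39 unfed, 20.2, 23.7 and 24.6 at 3 h and 4.27, 4.46 and 4.27 at 24 h, with no overlap between groups. Between the receptors themselves, Il1rl1 over Il1r1 went from 0.576 ± 0.0891 unfed to 2.44 ± 0.0378 at 3 h and 0.364 ± 0.0377 at 24 h (SD, n = 3). The size of each ratio rests on the same exonic lengths and so depends on the forms expressed. These are ratios of transcripts, and protein was not measured.

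**Figure D3:**
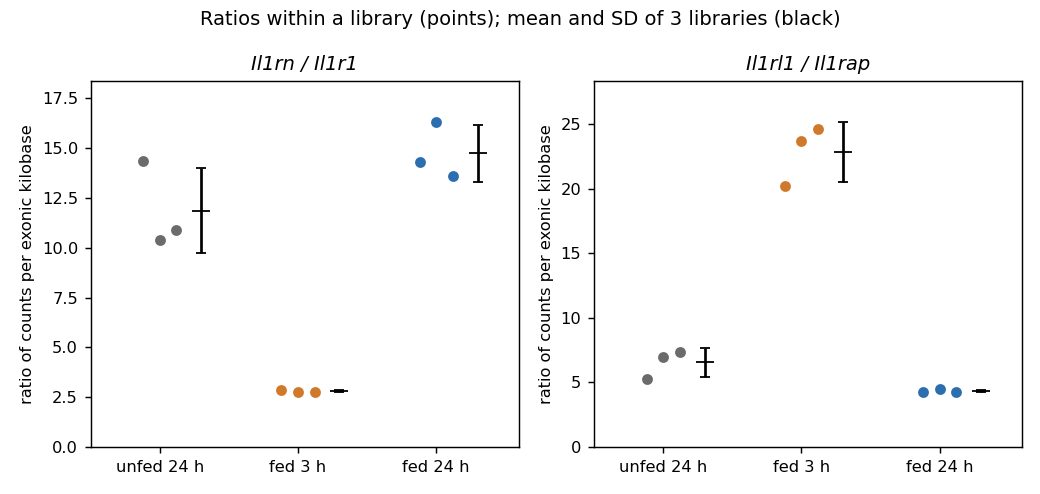
Ratio of counts per exonic kilobase within each library, for Il1rn over Il1r1 and for Il1rl1 over Il1rap. Points are libraries and black bars the mean and SD of 3. At 3 h the first ratio averages 2.79 against 11.9 unfed, and the second 22.9 against 6.54.

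Il1rl1 and Il1r1 lie in a cluster on chromosome 1 (40074079 to 40551705) that holds 6 receptors of the family among 10 annotated genes. Il1r2, the decoy receptor of interleukin 1, had 2, 0 and 3 reads in the unfed, fed 3 h and fed 24 h groups, and Il18r1, which begins 137 bases past the end of Il1rl1, had 0, 3 and 0. Il1rl2, the receptor of interleukin 36, was not called in any comparison, with means of 11.1 ± 1.02, 11.5 ± 0.320 and 12.3 ± 0.199 CPM. Il18rap, the accessory chain of the interleukin 18 receptor, begins 49.9 kb past Il1rl1. It was at 8.77, 11.5 and 10.3 CPM unfed, 13.3, 12.4 and 12.7 at 3 h and 7.75, 8.30 and 7.82 at 24 h, higher than unfed by 0.33 at 3 h (SE 0.0872, adjusted p = 0.00513, edgeR) and lower by -0.36 at 24 h (SE 0.0897, adjusted p = 0.00709). Of the 4 receptors of the cluster with enough counts, Il1rl1 and Il18rap were called higher at 3 h, Il1r1 lower and Il1rl2 not at all. The inhibitory receptor Sigirr, which lies elsewhere, had 50 reads in all 9 libraries together.

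Il1rn is the last gene of a run of interleukin 1 family genes on chromosome 2. The nearest annotated gene upstream of it is the long noncoding Gm13411 (24322424 to 24322956), which ends 13.9 kb before Il1rn and was singled out after its values were seen. Gm13411 had 62, 57 and 57 reads unfed, 2, 4 and 0 at 3 h and 150, 154 and 145 at 24 h. Its log2 fold change was -4.83 at 3 h (SE 0.383, adjusted p = 7.29e-08, edgeR), 1.16 at 24 h (SE 0.193, adjusted p = 0.000466) and 5.99 between the fed groups (SE 0.340, adjusted p = 8.44e-10), and no group overlapped with another. With so few reads at 3 h the first value was -5.78 without fed 3 h replicate 2 and -4.24 without fed 3 h replicate 3. The directions are those of Il1rn, at a level below 3 CPM.

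**Figure D4:**
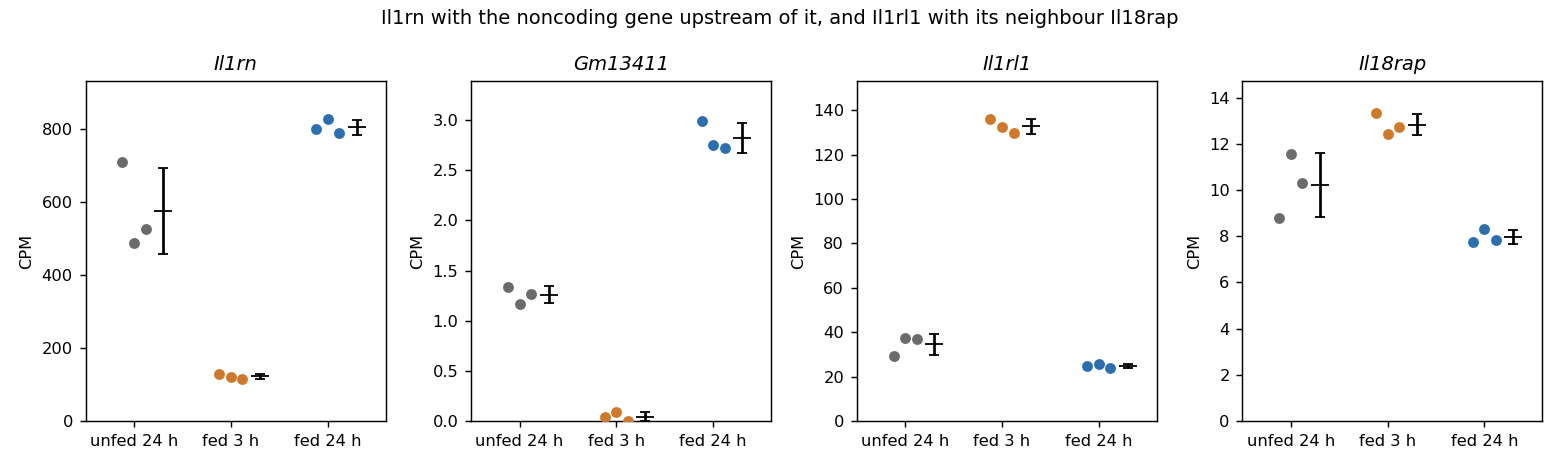
CPM per library of Il1rn and the noncoding gene Gm13411 upstream of it, and of Il1rl1 and its neighbour Il18rap. Points are libraries, bars the mean and SD of 3. Gm13411 falls to 0 to 4 reads at 3 h, where Il1rn is at 116 to 130 CPM, and Il18rap is highest at 3 h, as Il1rl1 is.

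Genes most like Il1rl1 were sought among tested genes with a mean of at least 5 CPM, leaving out uncharacterised clones and pseudogenes by name. Those whose log2 CPM followed Il1rl1 most closely over the 9 libraries were Ret, a receptor tyrosine kinase (Pearson r 0.998), Itgb7, an integrin chain (0.997), Smcr8 (0.997), Aif1l (0.997) and Snrpa1, a spliceosomal protein (0.997). The 9 libraries fall into 3 groups, so such values describe group patterns. Ret was at 10.3 ± 1.02, 24.3 ± 1.62 and 8.17 ± 0.298 CPM in unfed, fed 3 h and fed 24 h cells, and Aif1l at 3.30 ± 0.467, 11.9 ± 0.469 and 2.39 ± 0.252 CPM (SD, n = 3).

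Of 70 other genes of the pathway, listed by role with earlier results known, 45 had enough counts to be tested. At 3 h against unfed 11 rose and 17 fell (median log2 fold change -0.06), at 24 h against unfed 10 rose and 4 fell (0.05), and between fed 24 h and fed 3 h 22 were higher and 12 lower (0.21). Of all genes, 25.1% were called higher and 25.5% lower at 3 h, 14.9% and 15.9% at 24 h, and 30.8% and 30.2% between the fed groups, and the median over all genes was -0.01, -0.00 and -0.00. The 14 of 45 called at 24 h are close to the 30.8% of all genes called in that comparison. Without fed 24 h replicate 1 the 14 calls at 24 h came down to 9, 8 higher and 1 lower.

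Of 5 genes of ligand release, 3 had enough counts, and all 3 fell at 3 h, where 25.5% of all genes were called lower. They were Casp1, the protease that matures interleukin 1 beta and interleukin 18, from 16.2 ± 1.38 to 10.8 ± 0.444 CPM (log2 -0.58, SE 0.0694, adjusted p = 5.03e-06, edgeR), the pore-forming Gsdmd from 8.33 ± 0.541 to 5.79 ± 0.473 CPM (-0.52, SE 0.0878, adjusted p = 0.000138), and Casp4, a related caspase. At 24 h Casp1 rose over unfed to 20.3 ± 0.783 CPM (0.32, SE 0.0657, adjusted p = 0.00191), and the other members tested did not pass. The inflammasome adaptor Pycard had 0 reads in all 9 libraries.

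Among 20 genes that carry or restrain the signal past the receptors, 7 rose and 4 fell at 3 h, 3 rose and 1 fell at 24 h, and 5 were higher and 8 lower at 24 h than at 3 h, beside 50.6%, 30.8% and 60.9% of all genes called in either direction. The kinase Irak4, which acts upstream of Irak1, fell at 3 h from 22.3 ± 1.32 to 18.3 ± 0.877 CPM (-0.29, SE 0.0621, adjusted p = 0.00116, edgeR). It shares 395 exonic bases with Twf1 on the other strand. Irak2 and the ubiquitin ligase Traf6 were not called in any comparison, with Traf6 at 34.3 to 35.4 CPM unfed, 35.8 to 38.8 at 3 h and 34.8 to 36.9 at 24 h. The restraining kinase-like Irak3 was under 1 CPM in every library, with 60, 29 and 80 reads in the unfed, fed 3 h and fed 24 h groups. Irak3 shares 192 exonic bases with Tmbim4 and 28 with an antisense gene, both on the other strand. It was called lower at 3 h (-1.08, SE 0.380, adjusted p = 0.0268, edgeR) and higher at 24 h than at 3 h (1.30, SE 0.364, adjusted p = 0.00571). The 3 h call was lost without unfed replicate 2 (-1.03) or 3 (-1.05), or without fed 3 h replicate 1 (-0.71). Tnfaip3, the deubiquitinase A20, rose at 3 h (0.33, SE 0.0611, adjusted p = 0.000317). Tnip1, a partner of A20, fell at 3 h from 60.5 ± 0.663 to 44.8 ± 0.627 CPM (-0.43, SE 0.0413, adjusted p = 5.34e-07) and was 76.8 ± 1.36 CPM at 24 h (0.34, SE 0.0404, adjusted p = 3.77e-05).

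Toll-like receptors use the same adaptor. At 3 h 4 of 7 tested genes of this list fell and 2 rose, at 24 h against unfed 0 rose and 1 fell, and 4 were higher and 2 lower at 24 h than at 3 h, beside the same 50.6%, 30.8% and 60.9% of all genes called. The 4 that fell at 3 h were all receptors: Tlr2, from 44.9 ± 4.82 to 27.2 ± 1.01 CPM (-0.72, SE 0.0762, adjusted p = 1.56e-06, edgeR), Tlr6, Tlr1 and Tlr4, from 40.1 ± 3.45 to 33.5 ± 0.458 CPM (-0.26, SE 0.0568, adjusted p = 0.00139). The 2 that rose were the bridging adaptor Tirap (0.39, SE 0.0547, adjusted p = 2.76e-05) and the coreceptor Cd14 (0.35, SE 0.0578, adjusted p = 0.000132). Tirap shares 446 exonic bases with an antisense gene.

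Of 20 genes known to be induced by interleukin 1, 11 were tested. At 3 h 1 rose and 5 fell, at 24 h against unfed 5 rose and 1 fell, and 9 were higher and 1 lower at 24 h than at 3 h, with medians of -0.19, 0.45 and 0.80, beside 50.6%, 30.8% and 60.9% of all genes called. The 1 that fell at 24 h, Ccl7 (-0.24), was not called without unfed replicate 2 (-0.22), unfed replicate 3 (-0.20), fed 24 h replicate 1 (-0.25) or 2 (-0.19), or with library totals in place of TMM (-0.24). The 1 that rose at 3 h was Ptgs2, the inducible cyclooxygenase, which went from 16.7, 22.0 and 29.6 CPM unfed to 82.7, 66.1 and 56.6 CPM at 3 h (1.59, SE 0.163, adjusted p = 1.12e-06, edgeR) and was 35.0, 26.3 and 31.5 CPM at 24 h. The chemokines Ccl2 (-0.68, adjusted p = 7.00e-06) and Ccl7 (-0.82, adjusted p = 1.85e-06) and the adhesion molecule Vcam1 (-0.60, adjusted p = 5.64e-08) fell at 3 h.

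At 24 h the neutrophil chemokine Cxcl1 rose from 2.48, 3.51 and 4.78 CPM unfed to 17.5, 9.34 and 16.2 CPM (2.00, SE 0.230, adjusted p = 3.23e-05, edgeR). Mmp13, a collagenase, rose from 7.20 ± 2.46 to 16.8 ± 1.20 CPM (1.22, SE 0.188, adjusted p = 0.000264), and Nfkbiz, a nuclear NF-kappaB cofactor, from 5.81 ± 1.88 to 12.8 ± 2.64 CPM (1.14, SE 0.224, adjusted p = 0.00151). The other 2 that rose, named here after their values were seen, were Zc3h12a, a ribonuclease that degrades cytokine transcripts (0.80, SE 0.0806, adjusted p = 9.76e-06), and Nfkbia, the inhibitor of NF-kappaB (0.38, SE 0.0892, adjusted p = 0.00516). The summed macrophage and neutrophil markers were also highest at 24 h, as given above. Of the 3 macrophage markers tested, only Lyz2 was highest there, at 4.34, 2.74 and 6.73 CPM in unfed, fed 3 h and fed 24 h cells. Cd68 (1.21, 1.75 and 1.29) and Csf1r (0.157, 0.349 and 0.223) were highest at 3 h. The 2 neutrophil markers tested, Camp (2.54, 0.911 and 3.56) and Mmp9 (0.730, 0.293 and 0.900), had reads in unfed cells too. What part other cells had in these differences was not tested.

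**Figure D5:**
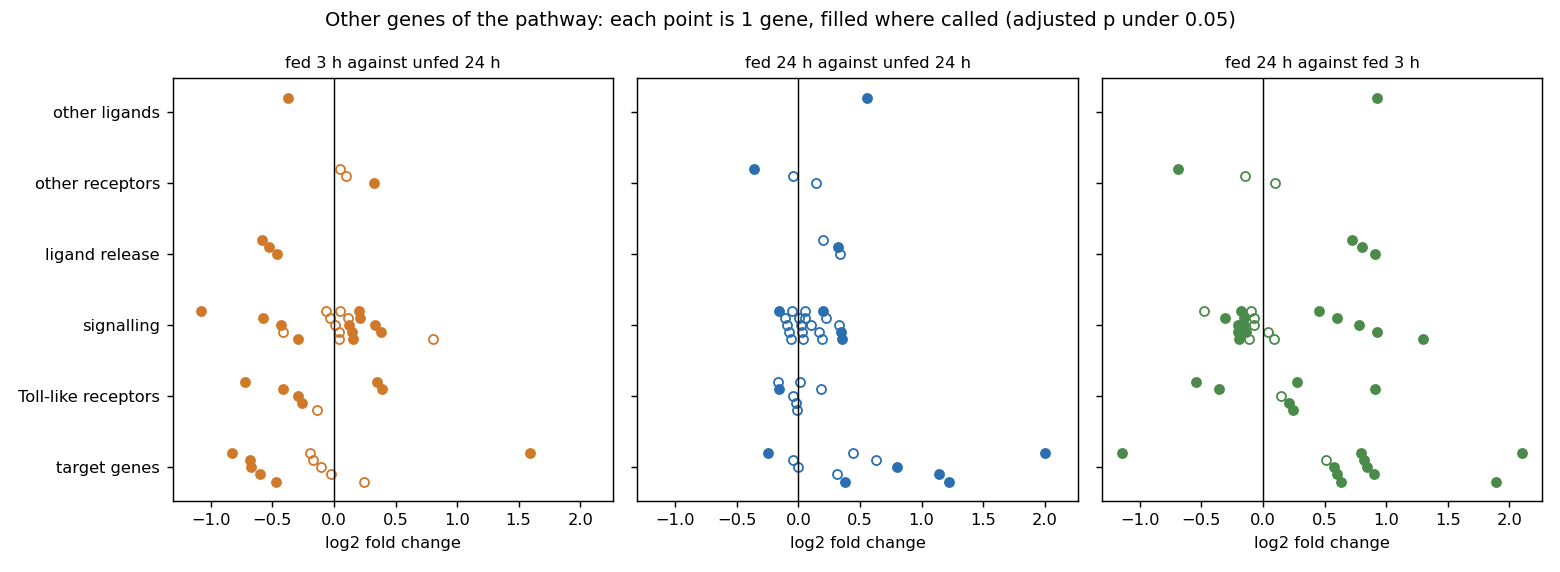
Log2 fold change of the 45 other pathway genes tested, by role, in the 3 comparisons. Each point is a gene, filled where the adjusted p was under 0.05. The target genes lie mostly left of the line at 3 h, with Ptgs2 at 1.59, and mostly right of it between fed 24 h and fed 3 h.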

How the data were processed

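RNA-seq was read in 9 libraries of ST2 cells. The authors deposited a table of raw counts per mouse gene symbol, not normalized; the submitters' processing notes name MultiQC 1.7, featureCounts of Subread 1.6.4 and STAR 2.7.0f, with builds GRCm38.p6 and GRCh38.p13. For strand setting, multimapping and annotation release the answer is not given in the sources used here. Per the labels' protocols the library kit is described in 2 conflicting ways, a stranded mRNA kit in one and an amplification kit that does not mark strand in the other, so overlapping genes are uncertain. Of the rows, 98.25% carried a GENCODE M21 symbol, and lengths and coordinates are from that release. The interleukin 36 ligands were matched by older RefSeq symbols.

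Counts were tested with edgeR 4.0.16 (R 4.3.3): quasi-likelihood F-test, TMM factors, filterByExpr, 9 libraries in 1 fit with group as the only term, Benjamini-Hochberg adjustment over 13568 genes, called at an adjusted p under 0.05. In counts simulated for 24 h against unfed over 13390 genes, it called 190 of 200 genes changed by 1 on the log2 scale in the right direction, with 12 false calls. There every gene had the same spread and only those 200 were changed, where 30.8% of genes were called in the data. The simulated figures are therefore not the error rate of the real comparison. The common biological coefficient of variation was 0.0536, and between replicates chi-square per degree of freedom was 5.20 to 15.4. The labels do not say that replicates were separate cultures, so p-values measure only the spread between these libraries, and PCR copies could not be removed.

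The members and the lists were chosen with earlier results of these data known. Named were all members, per list and comparison up to 3 called genes in each direction with non-overlapping libraries and at least 5 CPM in the higher group, a few fixed pathway genes, and the 5 genes most like Il1rl1; not every gene the rule names is described. Alternatives were DESeq2 1.42.0 (size factors, Wald test), limma-voom (limma 3.58.1), 2 other filters, the replicate number as a block, 6-library fits, each library left out in turn, and, added after seeing the data, library totals without TMM.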

Additional observations from a re-analysis of the deposited data

Results flagged for a closer look

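Of the 7 receptor genes, the 70 other pathway genes, Gm13411 and Acaa1a, those tested are listed here because all 3 fed 3 h libraries lay on one side of all 3 unfed libraries and all 3 fed 24 h libraries on the other. Both differences use the same unfed libraries, and values are log2 fold changes from unfed at 3 h and then at 24 h.

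Among the receptor genes, Il1rl1 was at 1.94 and -0.48, Il1r1 at -0.14 and 0.18 and Il1rn at -2.24 and 0.49. Among the other pathway genes, Il18 was at -0.37 and 0.55, Il18rap at 0.33 and -0.36, Casp1 at -0.58 and 0.32, Gsdmd at -0.52 and 0.20, Tollip at 0.12 and -0.076, Tifa at -0.57 and 0.35, Tnip1 at -0.43 and 0.34, Tirap at 0.39 and -0.16 and Nfkbia at -0.47 and 0.38. Gm13411 was at -4.83 and 1.16. Listing a gene this way already separates the libraries of the fed groups, so the comparison of fed 24 h with fed 3 h is no further test, and the difference between times is given here as a description, untested.

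The 24 h values of Gsdmd (adjusted p = 0.0867, edgeR) and Tollip (adjusted p = 0.185) were not called. That of Tifa was not called without unfed replicate 2 (0.29), unfed replicate 3 (0.32) or fed 24 h replicate 1 (0.33). That of Tirap was not called under 11 of 17 alternatives, with values of -0.20 to -0.13 over all 17. The 3 h value of Tollip was not called with no filter (0.12), without unfed replicate 3 (0.12), without fed 3 h replicate 1 (0.10) or with library totals in place of TMM (0.08).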

How the results depend on the processing

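Of 306 values of the 6 genes under the alternatives, 293 kept their side of the threshold, 7 lost the call and 6 gained one. Among called values 0 reversed direction. The 7 were those of Il1r1 without a single library given above. Those that gained a call were Irak1 at 3 h against unfed under the stricter filter (-0.09) and library totals without TMM (-0.13), Myd88 between the fed groups under the stricter filter (0.11), without fed 24 h replicate 3 (0.13) and under totals without TMM (0.15), and Irak1 between the fed groups under totals without TMM (0.10). Of 1731 values of the other genes that the rule or the text names, 1643 kept their side of the threshold, 70 lost the call and 18 gained one. Among those that gained a call were Traf6 at 3 h without fed 3 h replicate 3 (0.15) and Il1rl2 at 24 h without unfed replicate 1 (0.22). In both sets of genes, an uncalled value that changed sign was counted as kept. The uncalled difference of Il1rap between the fed groups ran from -0.11 to 0.07. Leaving out 1 library, the genes called ran from 2914 to 4425 at 24 h against unfed, 6034 to 6929 at 3 h and 7580 to 8544 between the fed groups, and the other pathway genes called at 24 h against unfed from 9 to 17, where 14 were called with all 9; the cause was not tested. With the replicate block, 3911, 6669 and 8091 genes and 12, 28 and 33 other pathway genes were called at 24 h, at 3 h and between the fed groups respectively, and no call of the 6 genes changed. Deviations of same-numbered libraries correlated at -0.163 to 0.0578 over 9 pairs, 0 of them over 0.1, so the libraries were taken to share only a number. Scaling by totals moved the median gene to -0.05 at 3 h. Depth limits Il33 and the interleukin 1 ligands, whose differences were not detectable.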

Other observations

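The interleukin 1 family genes upstream of Il1rn on chromosome 2 had too few reads to be tested, and their summed reads are given only as counts. Il1f9 had 8, 2 and 22 reads in the unfed, fed 3 h and fed 24 h groups, Il1f5 had 6, 0 and 14, and Il1f10 had 6, 3 and 24. Il1f6 had 0 reads in each group. In the inflammasome sensor Nlrp3 the 3 groups held 17, 5 and 36 reads, of which 23 of the last came from fed 24 h replicate 3.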
